A study of Mus musculus with 6 samples.

Results

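The network, microfibril and basement membrane collagens followed in these sorted mouse tendon cells are encoded by 10 genes: Col4a1, Col4a2, Col6a1, Col6a2, Col6a3, Col7a1, Col8a1, Col8a2, Col15a1 and Col18a1. They were chosen by symbol, not by a threshold on their values, but with earlier results of these data known. They are 10 of the 24413 genes in the deposited data. The libraries were made from cells of Achilles tendons of 3 male mice aged 12 weeks that carried the alleles Tppp3ECE/+, R26RtdT-CreERT2 and Scx-GFP. Cells were sorted by the GFP and tdT signals, and the submitters name them Tppp3+ cells. In the control group (3 libraries) cells were kept for 24 h in medium with 1% FBS. In the conditioned group (3 libraries) cells of the same genotype were kept for 24 h in medium conditioned by dissociated lumbar dorsal root ganglia (DRG), which hold the cell bodies of sensory neurons together with glia. Ganglia of 3 male C57BL/6J mice aged 12 weeks had been grown for 4 to 5 days, with the antimitotic agents 5-fluoro-2-deoxyuridine and uridine at 20 µM each, before the change to 1% FBS, and this medium was taken off daily, filtered and frozen. A tdT reporter driven through Tppp3 marks cells by lineage rather than by present expression of Tppp3. No label links a library to one of the animals, and the p-values reflect only how libraries of a group varied, which may in part be technical variation. Products of the ganglia, use of the medium by the cultures and drug residue cannot be told apart.

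Collagens are secreted proteins of intertwined chains, and the chains of the genes followed here build structures other than the thick fibrils of tendon. Type IV collagen, assembled from the products of Col4a1 and Col4a2 in most tissues, forms the sheet-like network of basement membranes. Type VI collagen, from Col6a1, Col6a2 and Col6a3, forms beaded microfibrils around cells, in tendon mainly in the pericellular matrix of tenocytes. Type VII collagen forms the anchoring fibrils below epithelia, and type VIII collagen, from Col8a1 and Col8a2, is a short-chain collagen of hexagonal networks, known from blood vessels and the cornea. Types XV and XVIII are proteoglycan collagens of basement membrane zones, and the end of the type XVIII chain is released as endostatin.

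The type IV and type VIII genes are shown first by the sequence around their starts, since these were the pairs of chains in which both genes were called. Col4a1 (chromosome 8 from 11198423 to 11312826, minus strand, mm10) and Col4a2 (chromosome 8 from 11312805 to 11449287, plus strand) are divergent neighbours whose annotated first exons overlap by 22 bases. The overlap, chr8:11312805-11312826 in GRCm38.p6 (mm10), holds a GC box, the letters GGGCGG on either strand, in capitals:
Col4a2 strand (plus): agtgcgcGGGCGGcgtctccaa
Col4a1 strand (minus): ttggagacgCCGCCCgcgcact

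Col8a1 (chromosome 16 from 57624258 to 57754737, minus strand) and Col8a2 (chromosome 4 from 126286793 to 126314330, plus strand) are unlinked. The stretches before their start sites, chr16:57754738-57754987 on the minus strand (250 bases) and chr4:126286544-126286792 on the plus strand (249 bases), were taken from the RefSeq promoter windows of GRCm38.p6. Capitals mark GC boxes:
Col8a1 promoter: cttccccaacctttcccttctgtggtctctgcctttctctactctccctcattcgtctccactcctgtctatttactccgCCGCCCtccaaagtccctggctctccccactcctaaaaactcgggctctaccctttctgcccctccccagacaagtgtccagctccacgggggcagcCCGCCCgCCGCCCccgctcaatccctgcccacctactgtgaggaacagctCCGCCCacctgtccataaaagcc
Col8a2 promoter: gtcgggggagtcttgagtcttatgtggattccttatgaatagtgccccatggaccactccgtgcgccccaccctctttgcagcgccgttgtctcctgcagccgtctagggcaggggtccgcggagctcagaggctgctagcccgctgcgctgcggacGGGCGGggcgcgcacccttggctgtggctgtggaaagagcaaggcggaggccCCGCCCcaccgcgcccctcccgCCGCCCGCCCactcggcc

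Each window runs from 250 bases before to 50 bases after a start, and both strands were searched. Both type VIII windows held 4 GC boxes and no CCAAT box, and 2 of the boxes of Col8a2 share bases, which makes 1 longer run of capitals. The Col4a1 window held 1 GC box and 1 CCAAT box, and the Col4a2 window held 3 and 1. A GC box was found in 35.7% and a CCAAT box in 37.4% of the 32851 mouse promoter windows of this length. RefSeq gave 12 windows for the 10 genes. None of the 12 held the STAT site TTCNNNGAA (8.30% of all windows), which says only that these letters are not in these windows. A TATA box (TATAAA, 13.6% of all windows) was found in 0 of the 12 and an AP-1 site (TGANTCA, 7.81%) in 1, that of Col6a1.

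Levels are given in FPKM, fragments scaled by the length of the gene and by the total of the library. The length was that of all annotated exons of a gene. Levels of different genes compare only as far as this length matches the transcripts present. The authors had divided by 18814702 to 26233217 fragments per library. Each gene was tested with limma on log2(FPKM + 1), over the 11678 genes that averaged 1 FPKM or more, and a gene was called at a Benjamini-Hochberg adjusted p below 0.05. Log2 fold changes are conditioned minus control, and where a group's 3 values are listed they are those of replicates 1, 2 and 3 in that order. All 10 collagen genes passed the filter on low values. With conditioned medium 2 were higher (Col4a1 and Col4a2), 2 were lower (Col8a1 and Col8a2) and 6 did not pass. Over all genes 4.04% were called higher and 2.49% lower, 6.53% in either direction. The median log2 fold change of the 10 genes was -0.032, against 0.0052 for all genes tested. The values of the groups did not overlap for 7 of the 10 genes, against 26.0% of all genes tested, and 3 of those 7 (Col6a2, Col7a1 and Col15a1) did not pass.

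**Figure D1:**
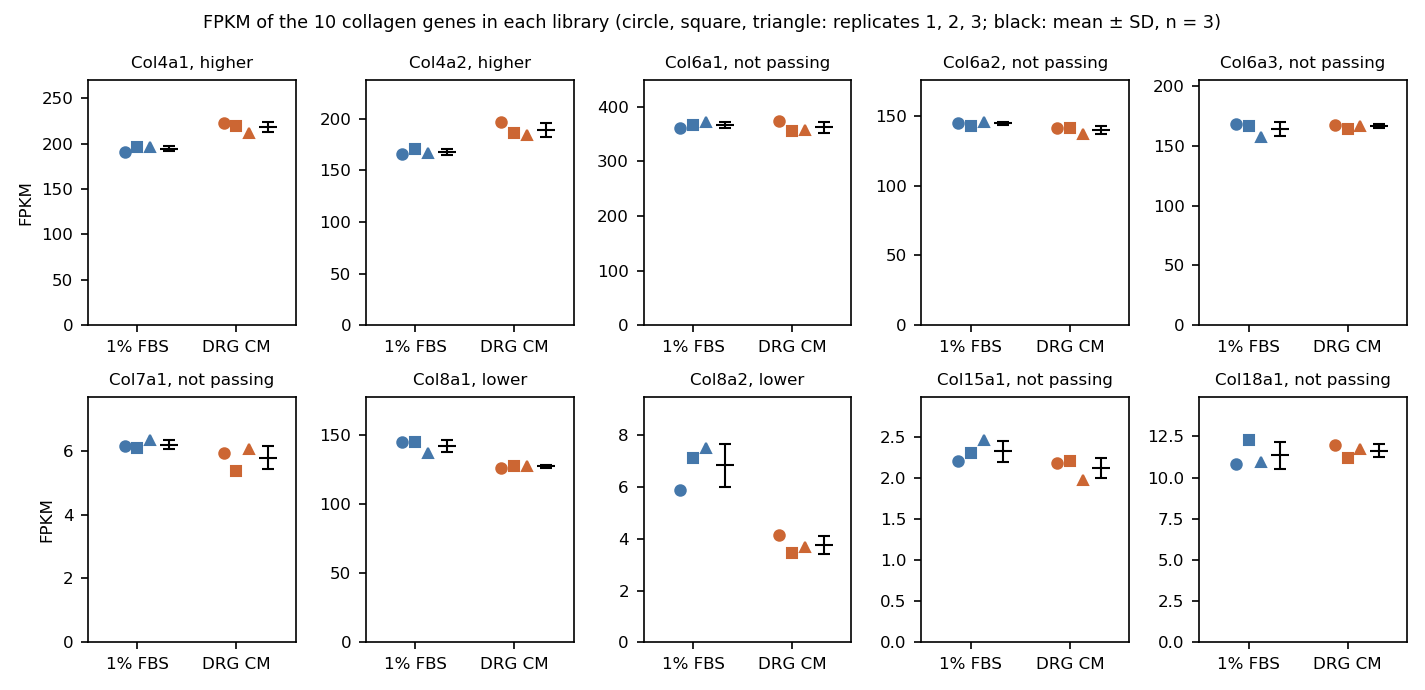
FPKM (y axis, from 0) of each of the 10 collagen genes in the 3 control libraries (1% FBS) and the 3 conditioned libraries (DRG CM), with symbols for replicates 1, 2 and 3 and black marks for mean ± SD, and the limma call above each panel. Col4a1 and Col4a2 lie higher and Col8a1 and Col8a2 lower in all 3 conditioned libraries, while those of Col6a1, Col6a3 and Col18a1 overlap the controls.

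In control medium Col6a1 had the highest level, 366 ± 5.66 FPKM (SD, n = 3). Col4a1 (194 ± 2.77), Col4a2 (168 ± 2.73), Col6a3 (164 ± 6.14), Col6a2 (145 ± 1.38) and Col8a1 (142 ± 4.50 FPKM) followed. The ranges of Col4a2 and Col6a3 overlapped, as did those of Col6a2 and Col8a1, so the order within those pairs was not resolved. The order by FPKM also depends on the exon length used for each gene. These 6 genes lay above 97.7% or more of the tested genes by mean level. Col18a1 was much lower at 11.4 ± 0.819 FPKM, followed by Col8a2 (6.82 ± 0.838) and Col7a1 (6.19 ± 0.136), whose ranges overlapped, and Col15a1 (2.33 ± 0.126 FPKM). In conditioned medium the ranges of all neighbours in the order were separate. Col8a2 then lay below Col7a1, and the order of the others by mean did not differ. The 10 genes together took 0.855% to 0.871% of a library's fragments in control and 0.868% to 0.894% in conditioned medium.

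Transcripts of both type IV chains rose, by 12.1% and 12.7% of their control levels. Col4a1, which encodes the alpha 1 chain, had 191, 196 and 196 FPKM in control replicates 1, 2 and 3 and 222, 219 and 212 FPKM in conditioned replicates 1, 2 and 3. All 3 conditioned libraries lay above all 3 controls. The mean went from 194 ± 2.77 to 218 ± 5.53 FPKM, a difference of 12.1%, with a log2 fold change of 0.16 ± 0.033 SE (95% interval 0.088 to 0.24, limma adjusted p = 0.024). Col4a2, which encodes the alpha 2 chain, measured 166, 171 and 167 FPKM with control medium and 196, 186 and 184 FPKM with conditioned medium. Its groups did not overlap either, with the smallest gap between conditioned replicate 3 and control replicate 2. The mean went from 168 ± 2.73 to 189 ± 6.47 FPKM, a difference of 12.7%, with a log2 fold change of 0.17 ± 0.036 SE (95% interval 0.089 to 0.25, limma adjusted p = 0.028). These levels rest on 29502 to 38346 fragments per library for Col4a1 and 22233 to 29637 for Col4a2. The 22 overlapping bases are 0.295% of the exon length of Col4a1. Exons of Col4a2 share 0.982% of their length with Col4a1 and an antisense gene, Gm15419. As the strand setting of the counting is not known, fragments of these bases cannot be told apart. Both adjusted p-values are near the threshold. The call of Col4a1 was lost without control replicate 1 or 2 or conditioned replicate 1 or 2 (adjusted p = 0.051 to 0.12), and that of Col4a2 without any 1 of the 6 libraries (0.051 to 0.11).

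None of the further type IV chains was called. Col4a5, which encodes a chain of the networks of kidney, skin and smooth muscle, went from 23.7 ± 0.652 to 22.3 ± 0.503 FPKM (log2 fold change -0.086, limma adjusted p = 0.28). Col4a3, Col4a4 and Col4a6 lay below the filter, with at most 0.556 FPKM in any library. Col4a6 had 0.506 ± 0.043 FPKM with control and 0.325 ± 0.075 FPKM with conditioned medium, lower in all 3 conditioned libraries but not tested. The groups of Col4a3 and Col4a4 overlapped. Within each library Col4a1 had 1.16 ± 0.015 times the FPKM of Col4a2 in control and 1.15 ± 0.022 times in conditioned medium (n = 3 each). The log2 ratio differed by -0.0077 between the groups, less than its SD within groups of 0.024 (exact two-sided permutation test, p = 0.8, where 0.1 is the smallest p that 3 against 3 allows).

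Transcripts of both type VIII chains fell, Col8a2 by far more than Col8a1 in proportion. Col8a1, the abundant chain of the pair, measured 145, 145 and 137 FPKM with control medium and 126, 128 and 128 FPKM with conditioned medium. The groups did not overlap, and control replicate 3 was the lowest control. The mean went from 142 ± 4.50 to 127 ± 0.855 FPKM, a difference of -10.5%, with a log2 fold change of -0.16 ± 0.034 SE (95% interval -0.24 to -0.080, limma adjusted p = 0.032). Col8a2, the minor chain, measured 5.88, 7.12 and 7.48 FPKM with control medium and 4.13, 3.43 and 3.69 FPKM with conditioned medium. Every conditioned library lay below every control, from 290 to 403 fragments against 613 to 838. The mean went from 6.82 ± 0.838 to 3.75 ± 0.350 FPKM, a difference of -45.0%, with a log2 fold change of -0.72 ± 0.091 SE (95% interval -0.93 to -0.51, limma adjusted p = 0.0027). The fall of Col8a2 was called in all 14 alternative ways of processing, with each library left out in turn among them. The call of Col8a1 was lost without control replicate 1 or 2 or any 1 conditioned replicate (adjusted p = 0.069 to 0.13).

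The ratio of the type VIII chains to each other was read within libraries. Col8a1 had 24.6, 20.4 and 18.3 times the FPKM of Col8a2 in control replicates 1, 2 and 3 and 30.6, 37.1 and 34.7 times in conditioned replicates 1, 2 and 3. The groups did not overlap, and the mean ratio went from 21.1 ± 3.21 to 34.1 ± 3.30 (n = 3 each), a difference of 0.70 in the log2 ratio against an SD within groups of 0.18. The exact two-sided permutation test gave p = 0.1, the smallest that 3 against 3 allows (0.5 after Benjamini-Hochberg adjustment over the 5 ratios compared). With 3 libraries per group this test therefore cannot bring such a ratio below 0.05. A single scaling factor per library leaves such a ratio as it is. Quantile normalization, run on log2(FPKM + 1), gave a difference of 0.53 (exact two-sided permutation test, p = 0.1). The added 1 shrinks changes of a low gene such as Col8a2, so 0.53 and 0.70 are not on the same scale. Col10a1, a network collagen of the same short-chain class known from growth plate cartilage, had 12.3 ± 0.563 and 11.1 ± 0.459 FPKM and did not pass (limma adjusted p = 0.22).

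**Figure D2:**
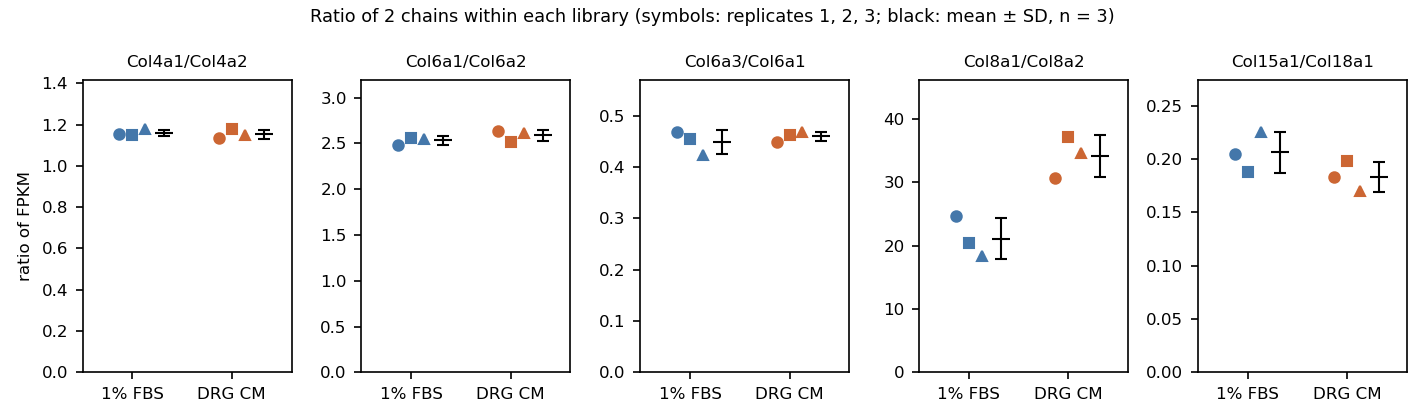
Ratio of the FPKM of 2 chains within each library (y axis, from 0) for 5 pairs of genes, with symbols for replicates 1, 2 and 3 of the control (1% FBS) and conditioned (DRG CM) groups and black marks for mean ± SD. The Col8a1/Col8a2 ratio lies between 18.3 and 24.6 in control and between 30.6 and 37.1 in conditioned libraries, while the groups overlap for the other 4 pairs.

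None of the 3 type VI chains passed. Col6a1, the alpha 1 chain, measured 360, 367 and 371 FPKM with control medium and 373, 356 and 357 FPKM with conditioned medium, and the groups overlapped. Its log2 fold change was -0.016 ± 0.033 SE, with a 95% interval from -0.091 to 0.059 (limma adjusted p = 0.85). Col6a3, whose long chain carries many von Willebrand factor A domains, measured 169, 167 and 157 FPKM with control medium and 168, 164 and 167 FPKM with conditioned medium, again with overlap. Its log2 fold change of 0.019 had a 95% interval from -0.065 to 0.10 (limma adjusted p = 0.83), and it turned to -0.012 without control replicate 3, the lowest library. Col6a2, the alpha 2 chain, measured 145, 143 and 146 FPKM with control medium and 141, 141 and 137 FPKM with conditioned medium. Its conditioned libraries all lay below the controls, but the mean differed by only -3.24% and did not pass (log2 fold change -0.047, 95% interval -0.12 to 0.024, limma adjusted p = 0.47).

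Summed over the 3 chains, type VI collagen ranged from 674 to 676 FPKM in control and from 661 to 682 FPKM in conditioned libraries. Col6a1 had 2.53 ± 0.045 times the FPKM of Col6a2 in control and 2.59 ± 0.063 times in conditioned medium (exact two-sided permutation test, p = 0.3, n = 3 each). The size of that ratio rests on exon lengths of 4380 bases for Col6a1 and 8326 for Col6a2. In control replicate 1 they had 36626 and 28079 fragments. Col6a3 had 0.449 ± 0.023 and 0.460 ± 0.0093 times the FPKM of Col6a1 (p = 0.7 by the same exact test). The alternative type VI chains Col6a4, Col6a5 and Col6a6 lay below the filter, with at most 0.233 FPKM in any library. Col6a4 was lower in all 3 conditioned libraries, on 17 to 25 fragments against 39 to 45 in control, but was not tested. The groups of Col6a5 and Col6a6 overlapped. Col6a1 (chromosome 10 from 76708792 to 76726168) and Col6a2 (chromosome 10 from 76595762 to 76623630) are neighbours on the minus strand, 85161 bases apart. Col18a1 (chromosome 10 from 77052178 to 77166548) lies 326009 bases beyond Col6a1, and Col6a3 lies on chromosome 1 from 90765923 to 90843971.

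The remaining chains were expressed at lower levels and did not pass. Col7a1, the anchoring fibril collagen (chromosome 9 from 108953586 to 108984875), measured 6.14, 6.08 and 6.34 FPKM with control medium and 5.91, 5.37 and 6.05 FPKM with conditioned medium. Its conditioned libraries all lay just below the controls, but the difference of -6.65% did not pass (log2 fold change -0.086 ± 0.056 SE, limma adjusted p = 0.46). Col15a1 (chromosome 4 from 47208161 to 47313167) measured 2.22, 2.31 and 2.47 FPKM with control medium and 2.19, 2.21 and 1.99 FPKM with conditioned medium, resting on 264 to 385 fragments. Control replicate 1 and conditioned replicate 2 were nearly equal, and the difference of -8.79% did not pass (log2 fold change -0.092, 95% interval -0.24 to 0.061, limma adjusted p = 0.51). Col18a1, the source of endostatin, measured 10.8, 12.3 and 10.9 FPKM with control medium and 12.0, 11.2 and 11.7 FPKM with conditioned medium. Its groups overlapped (log2 fold change 0.032, 95% interval -0.10 to 0.16, limma adjusted p = 0.82). The ratio of Col15a1 to Col18a1, related proteoglycan collagens, was 0.206 ± 0.019 in control and 0.183 ± 0.014 in conditioned medium (exact two-sided permutation test, p = 0.2, n = 3 each).

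The fibril collagens, the bulk of tendon matrix, were set beside these genes. Of 10 tested fibril-forming collagen genes 6 fell, 0 rose and 4 did not pass, with a median log2 fold change of -0.16. The largest falls among them were those of Col2a1 (-0.50), Col1a2 (-0.36), Col1a1 (-0.33) and Col11a1 (-0.25), each called with every library left out in turn. Col5a2 (-0.18) and Col3a1 (-0.15) were the other two, and Col5a2 lost its call without conditioned replicate 2 (adjusted p = 0.063). Col3a1 lost it without control replicate 2 or any 1 conditioned replicate (0.053 to 0.12). The summed level of all 11 listed genes went from 6101 ± 74.2 to 5030 ± 61.6 FPKM, from 5.10% to 4.21% of a library's fragments. Summed type IV collagen went from 362 ± 4.97 to 407 ± 11.5 FPKM, and summed type VIII collagen from 149 ± 4.00 to 131 ± 0.602 FPKM (n = 3 each). Of 3 tested fibril-associated collagens 1 fell, Col14a1 (-0.60), and 2 did not pass. All these are shares of a library's fragments. With quantile normalization or median-of-ratios scaling, Col4a1 and Col4a2 were still called higher and Col8a1 and Col8a2 lower, and the same number of fibril-forming collagens was lower (6).

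**Figure D3:**
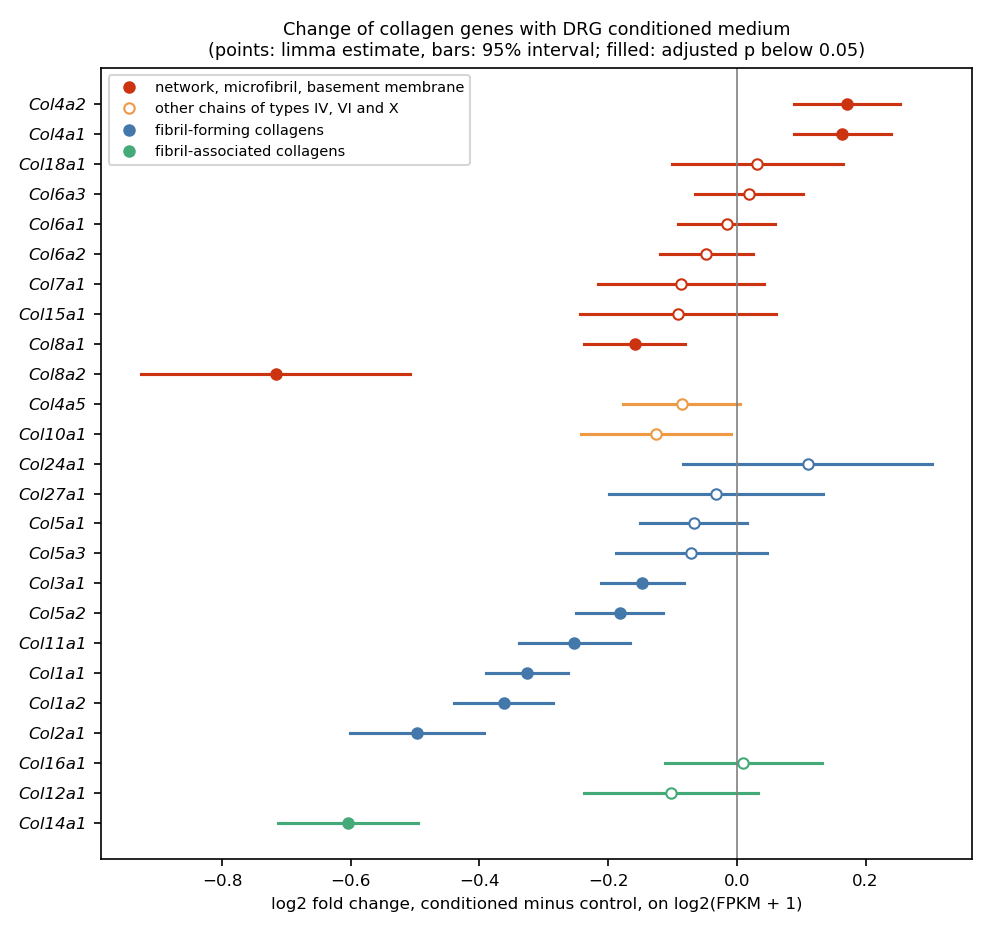
Log2 fold change on the log2(FPKM + 1) scale, conditioned minus control (x axis), with 95% intervals for the tested collagen genes, coloured by class and filled where the limma adjusted p was below 0.05. Col4a1 and Col4a2 are the filled points right of 0, and Col8a2 at -0.72 is the farthest to the left.

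The laminins, glycoproteins that form the second network of basement membranes, had 6 of 11 genes above the filter. Of these 1 rose and 5 did not pass (median -0.031). The gene that rose was Lama5, the laminin alpha 5 chain, from 9.36 ± 0.687 to 12.0 ± 0.396 FPKM (log2 fold change 0.32, limma adjusted p = 0.015). This call was lost without conditioned replicate 2 (adjusted p = 0.075). Lamb1 and Lamc1, the common beta and gamma chains, had log2 fold changes of -0.011 and 0.048. These are named beside Lama5 because they are the usual partners of an alpha chain, and neither passed (adjusted p = 0.90 and 0.55). No laminin was lower by this test, where 1 was at an unadjusted p below 0.05 and 1 by voom, limma's weighting of fragment counts.

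Of 13 tested genes for proteins that link or occupy basement membranes 3 rose, 2 fell and 8 did not pass (median -0.044). Agrn, the heparan sulfate proteoglycan agrin, known for clustering acetylcholine receptors at the neuromuscular junction, rose from 9.91 ± 0.295 to 20.3 ± 0.298 FPKM. Its log2 fold change was 0.96 ± 0.041 SE, and it was called with every library left out in turn. Ntn4, a laminin-related netrin, rose by 0.28 and Nid1, which joins laminin to type IV collagen, by 0.19, from 233 ± 9.87 to 266 ± 2.61 FPKM. Ntn4 lost its call without conditioned replicate 1 or 2 (adjusted p = 0.051 and 0.054). Nid1 lost it without control replicate 2 or any 1 conditioned replicate (0.079 to 0.11). Nid2, the other nidogen, went the other way, from 32.1 ± 1.70 to 28.1 ± 0.704 FPKM. Its log2 fold change of -0.18 did not pass (limma adjusted p = 0.058). Sparc, a matricellular protein that binds type IV and fibril collagens, fell from 1770 ± 10.6 to 1461 ± 18.1 FPKM (log2 fold change -0.28). Its call held with every library left out in turn. Smoc2, a matricellular protein related to Sparc, was the other gene that fell (-0.14), and it lost its call without any 1 of the 6 libraries (0.053 to 0.16). With quantile normalization 2 of this list were higher in place of 3. At an unadjusted p below 0.05, 5 were higher and 5 lower, and voom called 5 higher and 4 lower.

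Of 6 tested partners of the type VI microfibril 0 rose, 1 fell and 5 did not pass (median 0.031). Dcn, decorin, a small proteoglycan that binds type VI and fibril collagens, fell from 11.9 ± 0.478 to 8.44 ± 0.705 FPKM (log2 fold change -0.45, limma adjusted p = 0.0047), also with each library left out. With quantile normalization or median-of-ratios scaling 2 of this list were lower. At an unadjusted p below 0.05, 2 were higher and 2 lower, and voom called 2 higher and 2 lower.

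Of 15 tested genes for receptors of collagen and basement membrane 0 rose, 1 fell and 14 did not pass (median 0.035). The one called was Mrc2, an endocytic receptor that takes up collagen fragments, from 118 ± 2.78 to 107 ± 2.09 FPKM (log2 fold change -0.14, limma adjusted p = 0.044). Its call was lost without control replicate 2 or 3 or any 1 conditioned replicate (0.095 to 0.18). At an unadjusted p below 0.05, 1 receptor gene was higher and 2 were lower, and voom called 1 in each direction. Adgrg6, a receptor gene below the filter, had 0.718 ± 0.088 FPKM with control and 0.376 ± 0.043 FPKM with conditioned medium. It was lower in all 3 conditioned libraries.

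Enzymes and chaperones of collagen assembly had 0 higher, 4 lower and 16 not passing of 20 tested genes (median -0.024). Loxl2, a lysyl oxidase that also acts on type IV collagen, fell from 134 ± 2.08 to 111 ± 2.16 FPKM (log2 fold change -0.27) and was called with every library left out. P3h1, a prolyl 3-hydroxylase, Serpinh1, the collagen chaperone Hsp47, and P4hb, protein disulfide isomerase, fell by 0.24, 0.17 and 0.15. Each of these 3 lost its call without control replicate 2 or any 1 conditioned replicate, and P3h1 and Serpinh1 also without control replicate 3 (adjusted p = 0.064 to 0.15). With quantile normalization 3 were lower. At an unadjusted p below 0.05, 3 were higher and 5 lower, and voom called 2 higher and 4 lower.

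Proteases that cut these collagens, and their inhibitors, had 2 higher, 2 lower and 9 not passing of 13 tested genes (median -0.022). Ctsb, cathepsin B, rose by 0.25 and Ctsk, cathepsin K, fell by 0.35, each with every library left out. Ctsl, cathepsin L, which can release endostatin from type XVIII collagen, rose by 0.22, from 58.9 ± 2.67 to 68.5 ± 2.66 FPKM. Mmp14, a membrane metalloproteinase that activates the gelatinase Mmp2, fell by 0.17. Ctsl lost its call without control or conditioned replicate 1 or 2 (0.061 to 0.13). Mmp14 lost it without control replicate 2 or 3 or any 1 conditioned replicate (0.050 to 0.10). With quantile normalization 3 genes of this list were lower. At an unadjusted p below 0.05, 3 were higher and 5 lower, and voom called 2 higher and 4 lower.

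Basement membrane collagens are also made by cells other than tendon fibroblasts, so markers of such cells were read in the same libraries. In bulk RNA, fewer cells of a type and less RNA per cell cannot be told apart. Of 8 endothelial markers measured 1 passed the filter, Tek, which fell by 0.33 (called with all libraries, and lost without control replicate 1 or 2 or any 1 conditioned replicate, adjusted p = 0.060 to 0.084). The defining markers Pecam1 and Cdh5 had at most 0.083 and 0.045 FPKM in any library. The summed level ranged from 6.40 to 7.20 FPKM in control and from 5.31 to 5.49 FPKM with conditioned medium. Most of it was Tek itself (5.90 ± 0.377 and 4.50 ± 0.301 FPKM). Pericyte and smooth muscle markers, of which Pdgfrb is also a fibroblast gene, summed to between 160 and 162 FPKM with control medium and between 159 and 165 FPKM with conditioned medium. Of 6 tested 1 rose, Myh11 (0.31), 0 fell and 5 did not pass. At an unadjusted p below 0.05, 1 was higher and 2 were lower, Notch3 (-0.20) and Des (-0.27), and voom called 1 in each direction. Rgs5, below the filter, had 0.932 ± 0.163 FPKM with control and 0.500 ± 0.054 FPKM with conditioned medium, lower in all 3 conditioned libraries. Schwann cell and satellite glia markers had 2 of 9 above the filter, and limma and voom both called 0 (1 was lower at an unadjusted p below 0.05). Their sum lay between 4.65 and 5.30 FPKM with control medium and between 3.36 and 4.61 FPKM with conditioned medium. Sox10 had at most 0.028 FPKM in any library. Epithelial markers, 6 measured, all lay below the filter and summed to at most 0.789 FPKM.

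Other marker lists were read in the same way. Sensory neuron markers had 1 of 6 above the filter, Tubb3, a tubulin, which fell by 0.43, and summed to between 22.0 and 24.5 FPKM with control and between 16.2 and 17.4 FPKM with conditioned medium. Macrophage markers had 3 of 7 above the filter, and limma and voom called 0 (1 was lower at an unadjusted p below 0.05), with sums of 6.63 to 7.77 and 6.76 to 7.16 FPKM. Adipocyte markers had 1 of 4 above the filter, Plin4, which rose by 0.76, and summed to 1.77 to 2.09 and 3.75 to 4.46 FPKM. Most of these sums was Plin4 itself (1.55 ± 0.199 and 3.32 ± 0.309 FPKM). Of 8 tested tendon cell markers 5 fell (Fmod, Tnmd, Thbs4, Dpt and Egr1), 0 rose and 3 did not pass. Fmod fell by 0.46 with every library left out, while the other 4 lost their call without at least 1 library. At an unadjusted p below 0.05, 1 tendon marker was higher and 6 were lower, and voom called 1 higher and 4 lower. Scx did not pass, at 13.2 ± 0.551 and 11.5 ± 0.433 FPKM, and Tnmd, tenomodulin, went from 22.0 ± 0.850 to 16.3 ± 1.86 FPKM. Tppp3 itself lay between 0.724 and 1.12 FPKM in the 6 libraries, below the filter. The part of these lists in the changes of the collagen genes was not tested.

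**Figure D4:**
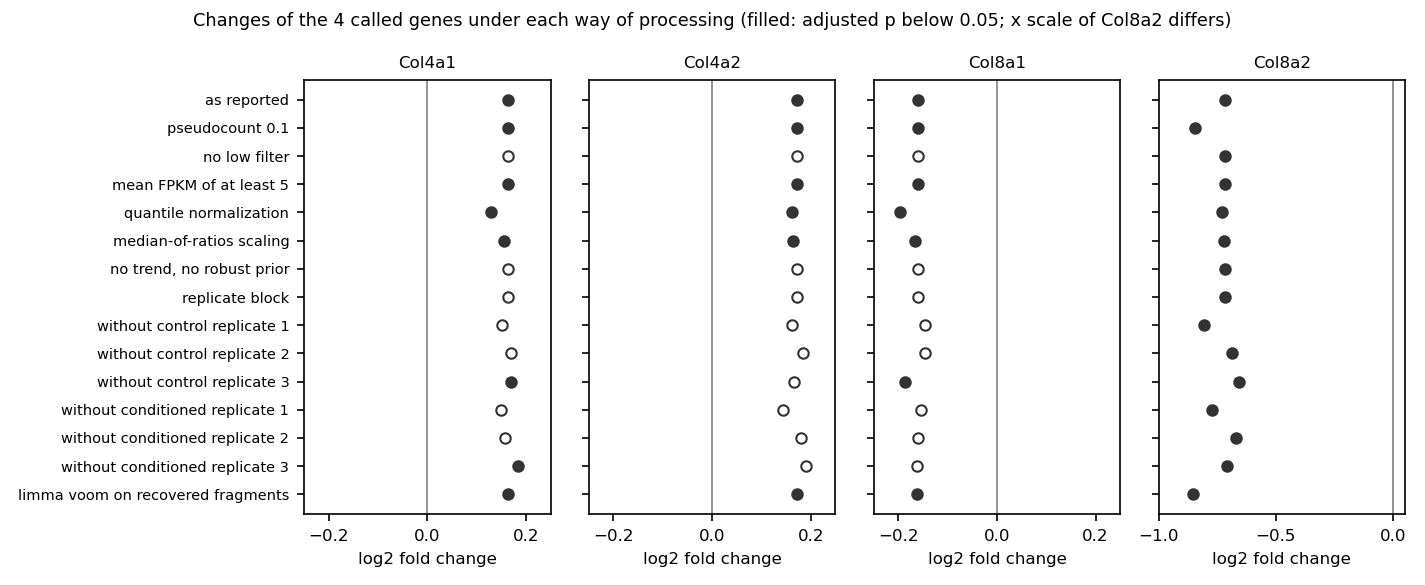
Log2 fold change (x axis, wider for Col8a2) of the 4 called genes as reported and under 14 alternative ways of processing, filled where the adjusted p was below 0.05. All points of a gene lie on the same side of 0, and Col8a2 is filled throughout, while Col4a1, Col4a2 and Col8a1 are open in 7, 9 and 8 of the 14. The filters, the prior and the replicate block leave the fold change itself as reported, so the side of those points was fixed.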

How the data were processed

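The deposited FPKM values, which the authors computed for each library without pooling, were used for all tests. CASAVA, HISAT2 2.0.5 and the build mm10 are listed, without a role, per the submitters' processing notes. Which counting program, annotation, strand setting or filters applied is not given in the sources used here. The members and gene lists were chosen with earlier results of these data known. All 10 genes were named, and of each other list at most 4 called genes, those of largest change. Named in addition, after their values were seen, were Col5a2, Col3a1, Smoc2, Nid2, Adgrg6, the laminin partners and the marker genes. The other chains of types IV, VI and X, none of them called, were named as well.

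For the test, log2(FPKM + 1) was taken from the deposited values. Genes averaging 1 FPKM or more entered limma 3.58.1 run under R 4.3.3 (trend, robust prior, two-sided, no covariate), checked first on simulated fragments. A fold change on this scale understates changes of low genes. With the GENCODE M21 exon length, the FPKM of 23574 of the 24413 genes, the 10 collagen genes among them, came out as whole fragments within 0.01 in every library, which gave the depth and the fragments used for voom. Duplicate symbols (11) and symbols turned into dates (23) were kept under their IDs. Ratios used exact permutation tests (scipy 1.17.1). Alternatives were another pseudocount (0.1), filters, scalings, prior and tool, the replicate number as a block, and each library left out.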

Additional observations from a re-analysis of the deposited data

How the results depend on the processing

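Of the alternatives, 14 were run for each gene. The edgeR test was not run, because the deposited values are not counts. Over all genes, 472 were higher and 291 lower (61.9% of calls higher), and with quantile normalization 394 and 361 (52.2%). The number lower was 165 with no low filter, and voom on recovered fragments gave 713 higher and 435 lower. Of the 10 collagen genes, 0 were higher and 1 lower with no low filter, and also without trend and robust prior. With each library left out in turn, 265 to 426 genes were higher and 129 to 252 lower, and 0 to 1 of the 10 were higher and 1 to 2 lower. Fewer libraries enter those fits. A filter at a mean of 5 FPKM leaves no value for Col15a1. The log2 fold change of Col6a3 ran from -0.012 (without control replicate 3) to 0.039. With a library left out, the log2 difference of the Col4a1/Col4a2 ratio ran from -0.023 to 0.0051 and that of Col6a3/Col6a1 from -0.0064 to 0.067. The other ratios kept their direction in all 11 alternatives run. Among these, median-of-ratios scaling and the replicate block leave the difference as it is and could not reverse it.

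Groups share replicate numbers, and no label says that these pair the libraries. Deviations of same-numbered libraries from their group means correlated at -0.095, -0.0080 and -0.048, which showed no sign of pairing. With 3 libraries per group these values cannot exclude it. With the replicate number as a block 259 genes were higher and 131 lower, and of the 10 collagen genes 0 were higher and 1 lower, Col8a2 (adjusted p = 0.025). The fewest fragments in a library were 290 for Col8a2 and 264 for Col15a1, against 1039 or more for the other 8 genes.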
